A study of Mus musculus with 4 samples.

Results

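The cell cycle and DNA replication genes described here are 39 genes, of 30026 genes read by the array, chosen by name from those with established roles in G1/S control (4 genes), DNA replication (13 genes) or mitosis (22 genes). They were read in liver of C57BL/6N mice on 4 one-colour (Cy3) Agilent arrays. The first 2 arrays held wild-type (WT) and Pnpla7-/- knockout (KO) liver at 3 weeks of age, and the other two held WT and KO liver at 6 weeks. Each array was hybridised with total RNA pooled from 5 animals, so each group is 1 pool and has no replicate. The labels do not say how the allele was made or which exons it lacks. PNPLA7 breaks down lysophosphatidylcholine, and the series asks how its loss bears on choline and methyl-group supply in liver.

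A dividing cell passes from G1 into S phase when D-type and E-type cyclins release E2F transcription factors, which switch on the genes that license and copy DNA. A later wave of genes, regulated by the DREAM, B-MYB and FOXM1 complexes, builds the mitotic spindle and separates the chromosomes. The liver of a young mouse is still growing, with hepatocytes dividing and becoming polyploid in the weeks around weaning, and division becomes rare in the adult organ.

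All values are levels of signal divided by the array's 75th percentile, so 1 is the level of a probe brighter than 75% of the probes on that array. Of 43020 non-control spots, between 28714 and 30697 were well above background on each array, and no spot was saturated. Of the 39 genes, 32 were well above background on all 4 arrays. Ccne2, which encodes an E-type cyclin, Aurkb, the kinase of the chromosomal passenger complex, and Cenpf, a kinetochore protein, were not well above background on any array and get no ratio. Top2a, Bub1 and Kif11 were not well above background on the KO array at 6 weeks, and Cdc6 on neither array at 6 weeks. A ratio against such a dim array is a bound, written as "or below". The error given after a log2 ratio is that of the scanner software's own error model for the spots compared. It ran from 0.204 to 0.293 over the cell cycle genes and leaves out differences between pools, which 1 array per group cannot show. The probe for Pnpla7 stood at 7.54 (WT) and 6.70 (KO) at 3 weeks, then at 9.65 and 4.42. It cannot check the genotype without the position of the deletion. Skeletal muscle markers set both KO arrays apart. All 10 of 10 markers were at least 2-fold higher in KO at both ages, and their summed signal at 3 weeks was 0.296 in WT against 54.3 in KO, and at 6 weeks 0.958 against 41.4. Hepatocyte markers, 10 of 10 well above background on every array, summed to between 1292 and 1485. The part of muscle RNA in the results below was not tested.

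The replication and the mitotic genes differ in their promoters, and the sequences are shown because the 2 groups also stood apart on the KO array at 6 weeks. RefSeq promoter windows of 300 bases, from 250 before to 50 after the annotated start on GRCm38.p6, matched 31 of the 39 genes, and the first listed start of each gene was used. They were searched on both strands for the E2F core (TTCCCGC or TTGGCGC or TTCGCGC or TTGCCGC), the CCAAT box bound by NF-Y (CCAAT) and the CHR element through which DREAM and B-MYB complexes act (TTTGAA). The first 280 bases of 6 windows follow, 5′ to 3′ on the strand of the gene, with all matches in capitals. Mcm5 and Mcm6 encode subunits of the replicative helicase, and Rrm2 the regulated subunit of ribonucleotide reductase. Cdc20 activates the anaphase-promoting complex, Ccnb2 is a B-type cyclin, and Top2a is the topoisomerase that untangles sister chromatids.
Mcm5: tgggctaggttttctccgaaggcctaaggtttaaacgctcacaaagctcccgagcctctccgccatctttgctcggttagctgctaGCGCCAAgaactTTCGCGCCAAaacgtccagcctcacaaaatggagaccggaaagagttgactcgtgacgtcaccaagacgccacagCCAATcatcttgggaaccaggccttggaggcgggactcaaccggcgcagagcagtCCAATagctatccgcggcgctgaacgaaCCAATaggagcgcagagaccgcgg
Mcm6: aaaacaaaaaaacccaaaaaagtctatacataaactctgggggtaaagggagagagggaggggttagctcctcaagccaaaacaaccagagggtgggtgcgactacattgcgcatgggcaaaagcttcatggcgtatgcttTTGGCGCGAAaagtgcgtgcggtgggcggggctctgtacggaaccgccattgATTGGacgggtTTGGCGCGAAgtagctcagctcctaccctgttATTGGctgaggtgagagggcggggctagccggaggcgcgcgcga
Rrm2: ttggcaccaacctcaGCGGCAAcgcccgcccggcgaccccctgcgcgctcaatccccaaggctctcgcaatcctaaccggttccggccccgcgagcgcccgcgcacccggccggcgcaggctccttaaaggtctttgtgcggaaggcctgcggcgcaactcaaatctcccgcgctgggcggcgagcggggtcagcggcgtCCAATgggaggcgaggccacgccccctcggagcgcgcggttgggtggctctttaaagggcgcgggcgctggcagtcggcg
Cdc20: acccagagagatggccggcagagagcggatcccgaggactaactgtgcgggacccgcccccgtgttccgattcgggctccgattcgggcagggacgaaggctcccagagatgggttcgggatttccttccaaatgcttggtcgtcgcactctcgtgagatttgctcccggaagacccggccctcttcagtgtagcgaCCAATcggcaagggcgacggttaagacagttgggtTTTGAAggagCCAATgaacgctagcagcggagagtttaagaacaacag
Ccnb2: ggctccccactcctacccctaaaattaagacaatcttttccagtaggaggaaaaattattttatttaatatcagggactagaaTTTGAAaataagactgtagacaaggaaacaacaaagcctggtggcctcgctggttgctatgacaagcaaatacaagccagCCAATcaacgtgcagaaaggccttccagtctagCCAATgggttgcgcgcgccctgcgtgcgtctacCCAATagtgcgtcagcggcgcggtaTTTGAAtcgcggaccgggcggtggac
Top2a: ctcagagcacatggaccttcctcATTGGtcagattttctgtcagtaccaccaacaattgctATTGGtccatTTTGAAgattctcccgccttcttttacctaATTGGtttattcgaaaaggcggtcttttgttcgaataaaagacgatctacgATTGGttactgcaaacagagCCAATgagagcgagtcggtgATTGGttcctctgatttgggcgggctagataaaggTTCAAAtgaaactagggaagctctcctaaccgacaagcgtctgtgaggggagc

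The Mcm5 window, chr8:75109259-75109538 on the plus strand, held 3 E2F cores and 3 CCAAT boxes and no CHR. The Mcm6 window, chr1:128359676-128359955 on the minus strand, showed 4 E2F cores and 2 CCAAT boxes and no CHR. E2F cores on opposite strands overlap in both. The Rrm2 window, chr12:24708004-24708283 on the plus strand, held 1 E2F core and 1 CCAAT box. By contrast the Cdc20 window, chr4:118437314-118437593 on the minus strand, held 1 CHR and 2 CCAAT boxes and no E2F core. The Ccnb2 window, chr9:70421525-70421804 on the minus strand, held 2 CHR and 3 CCAAT boxes, and the Top2a window, chr11:99024160-99024439 on the minus strand, held 2 CHR and 6 CCAAT boxes. Neither held an E2F core.

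Over the full 300-base windows, the CHR letters were found in 12 of 17 mitotic genes (70.6%) and 1 of 12 replication genes (8.33%), against 18.1% of 27025 promoters in the table. The 1 replication gene was Mcm2. E2F cores were found in 8 of 12 replication genes (66.7%) and 3 of 17 mitotic genes (17.6%), against 9.69% of all promoters. The mitotic genes with an E2F core were Cdk1, Ccnb1 and Mki67. CCAAT was found in 15 of 17 mitotic and 8 of 12 replication genes, against 37.9% of all. Among 43 further mitotic genes not on the list, 28 (65.1%) held the CHR letters and 10 (23.3%) an E2F core. Among 34 further replication genes these numbers were 6 (17.6%) and 17. A match is a string of letters and not a measured binding site, and these shares are a description without a test.

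**Figure D1:**
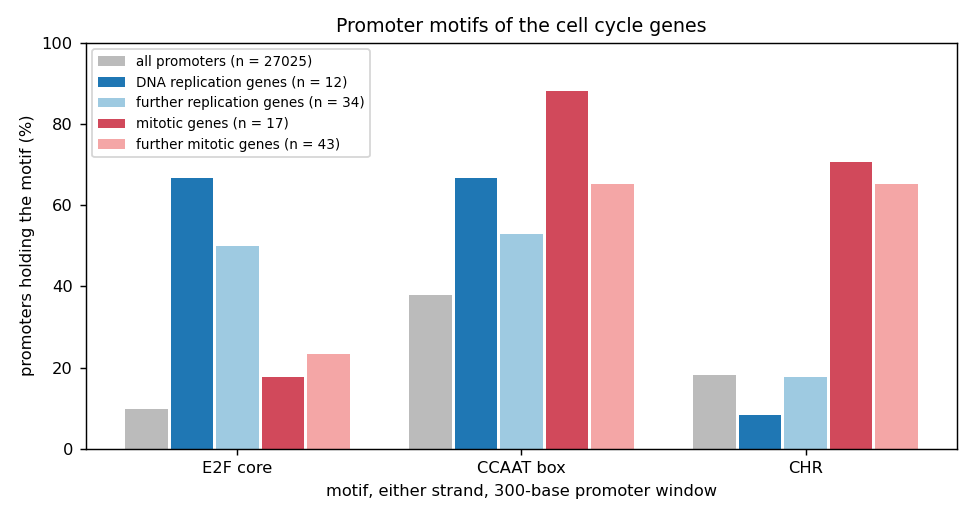
Share of promoters (%, y axis) holding an E2F core, a CCAAT box or a CHR on either strand of the 300-base window, for all promoters of the table and for 4 gene groups. CHR letters were in 70.6% of the mitotic and 8.33% of the replication genes, E2F cores in 17.6% and 66.7%.

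The first comparison shows how these genes stood in normal liver between 3 and 6 weeks. Nearly all were lower at 6 weeks in WT. Of 36 genes with a ratio, 30 were lower by 2-fold or more and 1 was higher by as much, against 5.9% and 3.67% of 20987 genes. The median log2 ratio was -1.58, against 0.01 for all genes. The mitotic genes had a median of -1.68, with 19 of 20 at least 2-fold lower, and the replication genes a median of -1.27, with 9 of 13. In bulk liver, fewer dividing cells and less RNA in each of them cannot be told apart.

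Mki67, which encodes the Ki-67 protein of the surface of mitotic chromosomes and is the usual marker of cycling cells, gave 3.13 in WT and 2.15 in KO at 3 weeks, then 0.783 in WT and 0.204 in KO at 6 weeks. In WT it was thus 3.998-fold lower at 6 weeks. Birc5, the survivin subunit of the passenger complex, had 5.72, 4.06, 1.20 and 0.447 in the same order, with a log2 ratio between the ages in WT of -2.26 ± 0.20. Both genes stood highest in WT at 3 weeks and lowest in KO at 6 weeks. Top2a had 0.440, 0.279, 0.0879 and, not well above background, 0.0106. Bub1, a spindle checkpoint kinase, had 0.119, 0.0820, 0.0210 and, not well above background, 0.00337, with a WT ratio between the ages of -2.50 ± 0.29. Cenpe, a kinetochore motor, was the mitotic gene with the smallest difference in WT, 0.910 at 3 weeks and 0.560 at 6 weeks.

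Among replication genes in WT, Cdc6, which loads the helicase onto origins, had a signal of 0.0713 at 3 weeks and was not well above background at 6 weeks, a log2 ratio of -2.54 or below. Rrm2 had 6.49 and 1.36, a ratio of -2.26 ± 0.20. Mcm5 and Mcm6 had ratios of -1.86 and -1.79, and Mcm2, Mcm3, Mcm4 and Mcm7 lay between -1.30 and -0.71. Cdt1, the partner of Cdc6 in origin licensing, stood at -0.99 and Rrm1, the large subunit of ribonucleotide reductase, at -1.34. Tyms, thymidylate synthase, and Pcna, the sliding clamp of the replication fork, differed least, by -0.16 ± 0.22 and -0.57 ± 0.20. Tk1, thymidine kinase, had -1.04. Ccnd1, cyclin D1, went the other way, with signals of 4.35 at 3 weeks and 12.9 at 6 weeks in WT, 2.97-fold higher. Ccne1, cyclin E1, had 1.15 and 0.381, and E2f1 had 0.640 and 0.294. With the mean of all probes the ratio between the ages in WT was -0.48 for Ccne1, -1.01 for Cdk1 and -1.001 for Tpx2. With normexp and quantile normalization it was -0.80 or below for Cdc6, -0.93 for Kif11, -0.95 for Kif20a, -1.18 for Bub1 and -1.68 for Top2a. Tk1 and Cdt1 lay so near the 2-fold line that a change of scaling or probes moved them across it.

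Markers of blood-forming and myeloid cells were lower at the same time. Of 11 erythroid markers with a ratio in WT, 10 were at least 2-fold lower at 6 weeks, with a median of -1.81, and the summed signal of the list was 175 at 3 weeks and 14.4 at 6 weeks. Of 9 neutrophil and precursor markers 7 were at least 2-fold lower, with a median of -2.66. Gata1 and Ahsp, which mark erythroid precursors, were well above background at 3 weeks and on neither array at 6 weeks. Hepatocyte markers had a median of -0.07 and Kupffer cell markers one of -0.05. The part of dividing blood cells in the ratios of the cell cycle genes between ages was not tested.

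**Figure D2:**
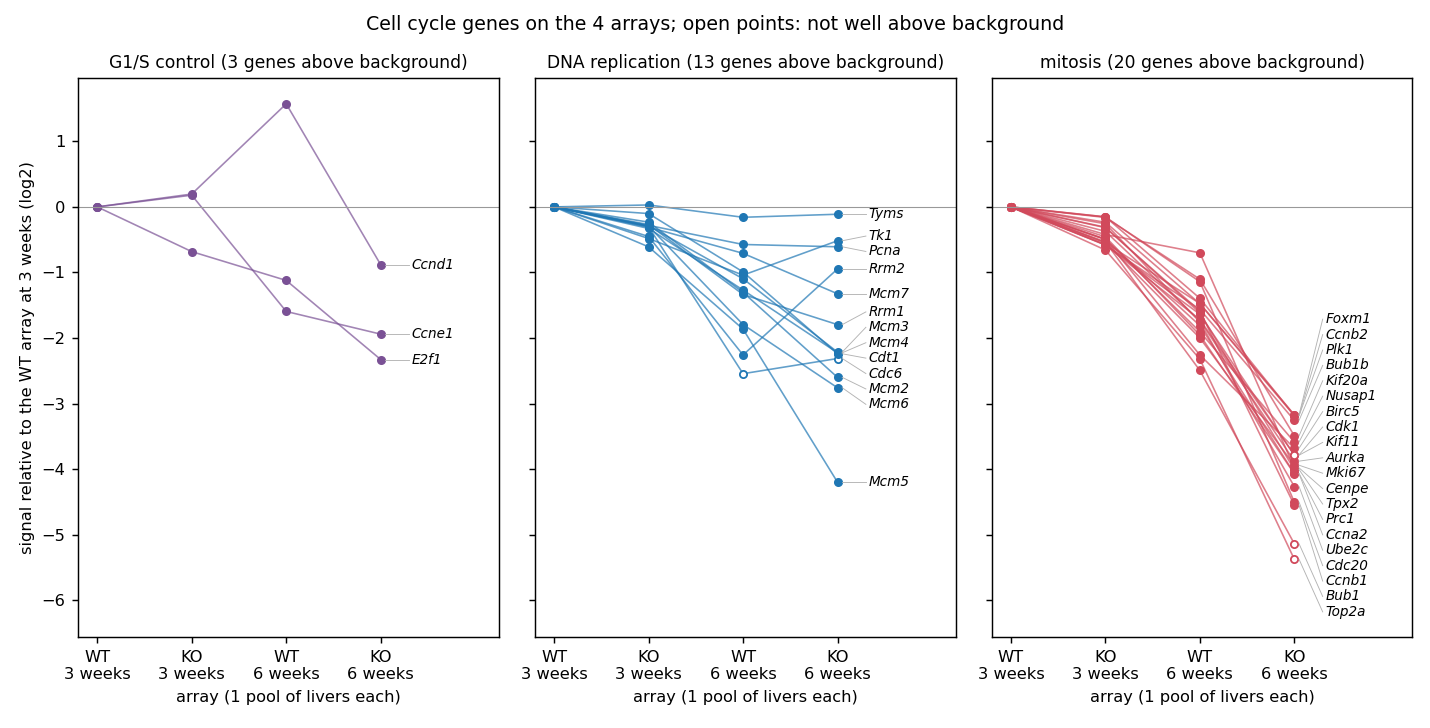
Signal of each gene relative to the WT array at 3 weeks (log2, y axis) on the 4 arrays (x axis), in panels for G1/S control, DNA replication and mitosis. Lines join 1 gene, and open points were not well above background. All 20 mitotic genes are lower at 6 than at 3 weeks and lowest in KO at 6 weeks. Tyms, Tk1, Pcna and Rrm2 spread above the other replication genes there.

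The next comparison asks how KO liver differed from WT at 3 weeks. The genes were slightly and almost uniformly lower in KO. Of 36 genes with a ratio, none passed 2-fold in either direction, against 2.98% lower and 2.95% higher of 21143 genes. But 33 were below 0, against 10452 of the 21143. Their median log2 ratio was -0.32, that of all genes 0.00, and the middle 50% of the list ran from -0.51 to -0.25. All 20 mitotic genes were below 0, with a median of -0.47, and 12 of 13 replication genes, with a median of -0.29. For probes printed 10 times on the array, repeat spots put a median SD of 0.0961 on such a ratio, and the error model put 0.204 on the typical gene of the list.

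E2f1 stood lowest at 3 weeks, with 0.640 in WT and 0.399 in KO, a log2 ratio of -0.68 ± 0.20. Top2a, at -0.66 ± 0.20, and Mcm5, with signals of 2.04 and 1.34 and a ratio of -0.61 ± 0.20, followed. Cdk1, the kinase that drives entry into mitosis, Bub1b, a checkpoint protein, and Kif11, a spindle motor, stood at -0.58, -0.58 and -0.57. Cdc20 and Ccnb2, both at -0.15 ± 0.20, and Kif20a, a motor of the central spindle, at -0.16 ± 0.20, were the mitotic genes nearest to WT. The 3 genes above 0 were Ccnd1 at 0.20, Ccne1 at 0.18 and Tyms at 0.03, all within the error of 0. With the mean of all probes Ccne1 stood at -0.04, and with quantile normalization Tyms at 0.00. Neutrophil and precursor markers moved in the same direction, 9 of 9 below 0 and 1 of them at least 2-fold lower, with a median of -0.43 and summed signals of 7.88 in WT and 5.81 in KO. Erythroid markers, 11 of 11 below 0, had a median of -0.19, and hepatocyte markers one of 0.05.

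At 6 weeks the cell cycle genes were far lower in KO than in WT, and the mitotic genes more so than the replication genes. Of 35 genes with a ratio, 25 were lower by 2-fold or more and 1 was higher, against 4.55% and 6.51% of 21332 genes. The list's median log2 ratio was -1.69, that of all genes 0.05. With normexp background correction and quantile normalization the list's median was -1.13 and 20 genes were at least 2-fold lower. Of 20 mitotic genes with a ratio, 19 were lower by 2-fold or more and 11 at least 4-fold lower, the latter against 1.26% of all genes, and their median was -2.09. Of 12 replication genes 4 were lower and 1 higher by that measure, and their median was -0.79. The 2 medians differed by 1.30, a difference that was 0.18 at 3 weeks. With normexp and quantile normalization the difference at 6 weeks was 0.73. By promoter letters, the 11 mitotic genes with a CHR match and a ratio had a median of -2.06. They lay between -3.36 and, for Kif11, -1.30 or below. The 5 without a CHR match had a median of -1.68, between -3.28 and, for Bub1, -0.64 or below. Top2a, Kif11 and Bub1 enter the medians by promoter letters at their bounds. A lower true ratio of Bub1 could lower the median of the 5, so the order of the CHR medians is not settled. Of the matched genes outside the mitotic group, only Mcm2 held a CHR, so a split of all genes by CHR nearly repeats that by role. The 22 genes with CCAAT had a median of -1.75 and the 7 without -1.21. The 10 genes with an E2F core had -1.18 and the 19 without -1.68. E2F cores were mostly in replication genes, so this split follows role in large part too. The 3 mitotic genes with a core, Ccnb1, Cdk1 and Mki67, stood at -2.96, -2.06 and -1.94.

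Cdc20 and Cenpe had the lowest measured ratios of the list. Cdc20 had a signal of 2.48 in WT and 2.23 in KO at 3 weeks, and of 1.13 in WT and 0.110 in KO at 6 weeks (probe at chr4:118105534-118105593, mm9). The KO signal at 6 weeks was 10.3-fold below WT, a log2 ratio of -3.36 ± 0.21, while the 3 other arrays lay within 2.21-fold of one another. Ube2c, the ubiquitin-conjugating enzyme of the anaphase-promoting complex, had 1.03, 0.863, 0.305 and 0.0537, a ratio at 6 weeks of -2.51 ± 0.22. Cenpe (chr3:134936387-134936446, mm9) had 0.910, 0.679, 0.560 and 0.0576, a ratio at 6 weeks of -3.28 ± 0.22. For Cdc20 and Cenpe the KO array at 6 weeks alone stood far from the rest.

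The cyclins and kinases of mitotic entry, with Foxm1, were between 3.24-fold and 7.80-fold lower. Ccnb1, cyclin B1 (chr13:101548722-101548781, mm9), had 0.651 in WT and 0.523 in KO at 3 weeks, 0.217 in WT and 0.0278 in KO at 6 weeks, a log2 ratio at 6 weeks of -2.96 ± 0.26. Ccna2, cyclin A2, had 1.099, 0.801, 0.283 and 0.0654, a ratio at 6 weeks of -2.12 ± 0.22. Cdk1 had 0.625, 0.418, 0.190 and 0.0454, a ratio at 6 weeks of -2.06 ± 0.22. In each of these the levels were ordered WT at 3 weeks, KO at 3 weeks, WT at 6 weeks and KO at 6 weeks. Ccnb2 stood at -1.79 ± 0.21, Plk1, the polo kinase, at -1.71 ± 0.21, and Foxm1, the transcription factor of the late wave, at -1.70 ± 0.23.

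Spindle and cytokinesis genes followed the same order of arrays. Prc1, which bundles microtubules of the central spindle, had 1.17, 0.834, 0.335 and 0.0701, a ratio at 6 weeks of -2.26 ± 0.21. Aurka, the centrosomal Aurora kinase, had 1.36, 1.05, 0.409 and 0.0927, a ratio of -2.14 ± 0.21. Tpx2, which activates Aurora A on the spindle, and Kif20a both stood at -2.39, and Nusap1, a spindle microtubule protein, at -1.68 ± 0.28. Bub1b stood at -1.69 ± 0.29, Mki67 at -1.94 ± 0.20 and Birc5 at -1.42 ± 0.20. Top2a had a ratio of -2.70 or below, Kif11 of -1.30 or below and Bub1 of -0.64 or below. Bub1 was thus the 1 mitotic gene whose value did not reach 2-fold, and its bound leaves the size unmeasured. With normexp and quantile normalization the dimmer genes lay closer to 0. Nusap1 then stood at -0.79, Bub1b at -0.72 and Kif11 at -0.50 or below, which ends their 2-fold calls. Ccnb1 stood at -1.76, Cdk1 at -1.40, Cenpe at -2.50, Kif20a at -1.62, Ube2c at -1.84, Tpx2 at -1.19 and Top2a at -1.05 or below. With the mean of all probes of a gene, Tpx2 stood at -1.26, Cdk1 at -1.17 and Birc5 at -2.04.

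Among the replication genes at 6 weeks, the helicase subunits were lower by unequal amounts. Mcm5 (chr8:77651350-77651410, mm9) had 2.04 in WT and 1.34 in KO at 3 weeks, 0.562 in WT and 0.111 in KO at 6 weeks, a ratio at 6 weeks of -2.34 ± 0.21. Mcm2 stood at -1.30 ± 0.21, Mcm3 at -1.12 ± 0.20, Mcm4 and Mcm6 at -0.96 ± 0.20 and Mcm7 at -0.62 ± 0.20. The protein products work as one hexamer, and Mcm5 was 5.05-fold lower where Mcm2, the next, was 2.46-fold lower. Cdt1 had 2.56, 2.38, 1.29 and 0.541, a ratio at 6 weeks of -1.25 ± 0.20. Near the 2-fold line, Mcm2 stood at -0.99 with normexp and quantile normalization and Mcm3 at -0.99 with the mean of all probes.

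The 5 remaining replication genes with a ratio at 6 weeks ranged from a lower to a higher level in KO. Rrm2 (chr12:25398824-25398883, mm9) had 6.49 in WT and 4.75 in KO at 3 weeks, 1.36 in WT and 3.37 in KO at 6 weeks. It was 2.48-fold higher in KO at 6 weeks, a log2 ratio of 1.31 ± 0.20, and the only gene of the list at least 2-fold higher there. Tk1 (chr11:117676845-117676904, mm9) had 6.95, 4.97, 3.38 and 4.86, a ratio at 6 weeks of 0.52 ± 0.20. Its level in KO was thus nearly the same at both ages, with a ratio of -0.03 ± 0.20 between them (0.02 with median scaling). Rrm1 had 2.16, 1.79, 0.855 and 0.622, a ratio at 6 weeks of -0.46 ± 0.20. Pcna, at -0.04 ± 0.20, and Tyms, at 0.05 ± 0.22, lay within the error of 0, and Tyms stood at -0.01 with normexp and quantile normalization.

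In G1/S control, Ccnd1 (chr7:152116202-152116261, mm9) had 4.35 in WT and 4.98 in KO at 3 weeks, 12.9 in WT and 2.36 in KO at 6 weeks. The KO array was 5.48-fold below WT at 6 weeks, a log2 ratio of -2.45 ± 0.20, and the WT array at 6 weeks stood above the other three. Against KO at 3 weeks the KO array at 6 weeks was 2.11-fold lower. E2f1 had 0.640, 0.399, 0.294 and 0.127, a ratio at 6 weeks of -1.21 ± 0.21, or -0.95 with normexp and quantile normalization. Ccne1 had 1.15, 1.30, 0.381 and 0.300, a ratio at 6 weeks of -0.35 ± 0.20, but of -1.62 with the mean of its probes.

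**Figure D3:**
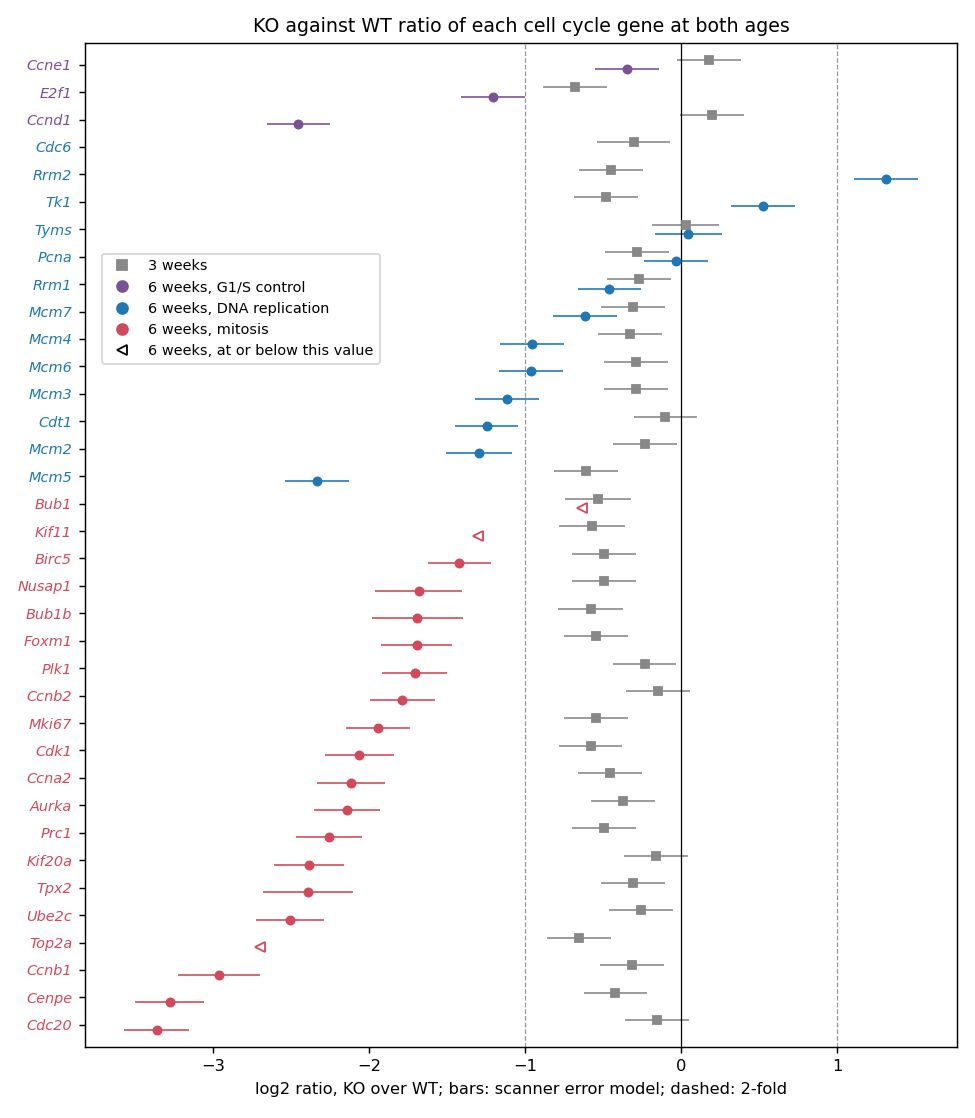
Log2 ratio of KO over WT (x axis) of each gene with a ratio (y axis) at 3 weeks (squares) and 6 weeks (circles). Bars are the error model of the scanner software, triangles are bounds, and dashed lines mark 2-fold. The ratios at 3 weeks lie between -0.68 and 0.20, and those at 6 weeks reach from -3.36 for Cdc20 to 1.31 for Rrm2.

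The KO array was also lower at 6 than at 3 weeks, by more than in WT for the mitotic genes. In KO, 32 of 36 genes were at least 2-fold lower at 6 weeks, against 6.35% of 21669 genes, and none was higher, against 6.1%. All 20 mitotic genes were at least 4-fold lower, against 2.06% of all genes, with a median log2 ratio of -3.36 in KO beside -1.68 in WT. That 4-fold count does not hold with normexp and quantile normalization for Bub1, Bub1b, Foxm1, Kif11 and Nusap1, which then stood between -1.82 and -1.01, or with the mean of all probes for Cdk1 at -1.80 and Tpx2 at -1.92. The replication genes had a median of -1.90 in KO beside -1.27 in WT. Cdc20 was 20.4-fold lower between the ages in KO and 2.21-fold in WT, Ccnb1 18.8-fold and 3.01-fold, and Ube2c 16.1-fold and 3.38-fold. Rrm2 went the other way, 1.41-fold lower in KO and 4.79-fold in WT. Over the 32 genes measured above background on every array, the KO/WT log2 ratio at 6 weeks minus that at 3 weeks had a median of -1.17, against 0.06 over 18871 genes. It was below 0 for 8123 of the 18871 genes. In the list it was below 0 for 17 of 17 mitotic, 8 of 12 replication and 3 of 3 G1/S control genes. It was lowest for Cdc20, at -3.21, and highest for Rrm2, at 1.76.

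Of these 32 genes, 27 had levels in the order WT at 3 weeks, KO at 3 weeks, WT at 6 weeks and KO at 6 weeks, an order held by 7.12% of the 18871 genes. The same number, 27, were lower in KO at both ages, against 24.4%. The 5 that were not, in either count, were Ccnd1, Ccne1, Rrm2, Tk1 and Tyms. Across the 32 genes the ratios at 3 and at 6 weeks, which share no array, had a Pearson's r of 0.07 and a Spearman's rho of 0.05. These points share the array pairs, and the values are a description. limma, fitted on age and genotype over 20866 genes with 1 residual degree of freedom, called none of 36 cell cycle genes for genotype or for age after Benjamini-Hochberg adjustment. It called 0.0% of all genes for either term. The 1 residual degree of freedom is the change of the KO/WT ratio between the ages. limma draws the variance from that change toward a prior variance estimated over all genes in the fit. For Tyms the change was 0.017, and the standard error of the genotype term was 0.145. The p-values thus weigh each term against this moderated variance, and not against differences between pools or animals. The lowest adjusted p of a cell cycle gene in limma was 0.813 for genotype, for E2f1, and 0.211 for age, for Cdc6. Unadjusted p-values lay under 0.05 for 1 of the 36 genes for genotype, against 4.98% of all genes, and for 29 for age, against 12.7%. Letting the prior variance follow the signal left none of the 36 called. The fit took signals not well above background as measured, which bears on Cdc6, Top2a, Bub1 and Kif11. For Cdc6 this held for both arrays at 6 weeks.

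Genes with the same roles outside the list showed how far the pattern reached. Of 50 further mitotic genes, 46 had a ratio at 6 weeks, with a median log2 ratio of -0.92. Of the 46, 21 were lower in KO by 2-fold or more and 1 was higher, against 4.55% and 6.51% of 21332 genes. The gene that was higher was Cep55, a protein of the cytokinetic midbody, at 1.57 ± 0.26, named after its value was seen. Of the 46 ratios 15 were bounds against a dim KO array, some of them among the 21, and that of Cit was a bound against a dim WT array. Ckap2, a spindle protein, and Pbk, a mitotic kinase, had ratios of -2.76 or below and -2.21 or below. Kifc1, a minus-end motor, stood at -2.20 ± 0.24, Sgo1, which protects centromeric cohesion, at -1.97 ± 0.25, Ncaph, a condensin subunit, at -1.89 ± 0.21 and Kif22, a chromosome-arm motor, at -1.88 ± 0.21. At 3 weeks 45 of 50 were below 0, against 10452 of 21143 genes, and their median was -0.43. Cit, citron kinase, was higher in KO at 3 weeks by 1.33 or more, but WT was not well above background there. Cenpi, a kinetochore protein, and Pbk stood at -0.74 at 3 weeks.

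Of 42 further replication genes with a ratio at 6 weeks, 7 were lower by 2-fold or more and none was higher, against 4.55% and 6.51% of all genes. Their median was -0.31. Pole2, a subunit of polymerase epsilon, stood at -1.71 ± 0.29 and Asf1b, a histone chaperone, at -1.70 ± 0.22. Dbf4, which activates the kinase that fires origins, had -1.51 ± 0.29, Prim2, the large primase subunit, -1.46 ± 0.21, and Uhrf1, which keeps up DNA methylation after replication, -1.41 ± 0.21. At 3 weeks their median was -0.33, with Gins2, a helicase partner, at -0.84 ± 0.21 and Pola1, the catalytic subunit of polymerase alpha, at -0.74 ± 0.20.

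Inhibitors and other G1 regulators, 33 with a ratio, were centred near 0, with medians of -0.02 at 3 weeks and -0.05 at 6 weeks. At 6 weeks 4 of the 33 were at least 2-fold lower and 2 higher in KO, against 4.55% and 6.51% of 21332 genes. The count of higher genes was thus near the share over all genes. E2f8, a repressor of E2F targets active in hepatocyte polyploidy, stood at -1.78 ± 0.21, E2f2 at -1.72 ± 0.20, Lin37, a DREAM subunit, just past the 2-fold line and Cdkn2b, an inhibitor of cyclin D kinases, at -1.28 or below. Myc had 0.130 in WT and 0.303 in KO, a ratio of 1.22 ± 0.21, and Cdkn1c, the p57 inhibitor, 0.740 and 1.61, a ratio of 1.12 ± 0.20. At 3 weeks Cdkn2c, E2f8 and Lin9 lay furthest from 0, at -0.58, -0.49 and -0.45.

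Markers of several cell types differed between KO and WT at 6 weeks beside the cell cycle genes. Of all genes, 4.55% were at least 2-fold lower in KO at that age and 6.51% higher. Kupffer cell markers were 10 of 10 below 0, against 9464 of 21332 genes. Of them 3 were at least 2-fold lower, with a median of -0.86 and summed signals of 80.7 in WT and 44.7 in KO. B cell markers had a median of -0.61, with 3 of 8 at least 2-fold lower, 1 higher and summed signals of 1.69 and 1.29. Endothelial and stellate cell markers had medians of -0.35 each, with 1 endothelial marker at least 2-fold lower and 1 stellate marker at least 2-fold higher. That stellate marker was Des, at 1.99 at 3 weeks and 2.35 at 6 weeks, higher at both ages as the skeletal muscle markers were. Erythroid markers, with summed signals of 14.4 in WT and 13.0 in KO, had a median of 0.08 with 3 of 8 at least 2-fold higher, and neutrophil and precursor markers, at 2.77 and 2.80, one of 0.19. Gata1 and Ahsp were well above background on neither array at 6 weeks. Hepatocyte markers had a median of 0.26. The part of Kupffer, B, endothelial and stellate cells in the ratios of the cell cycle genes was not tested.

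**Figure D4:**
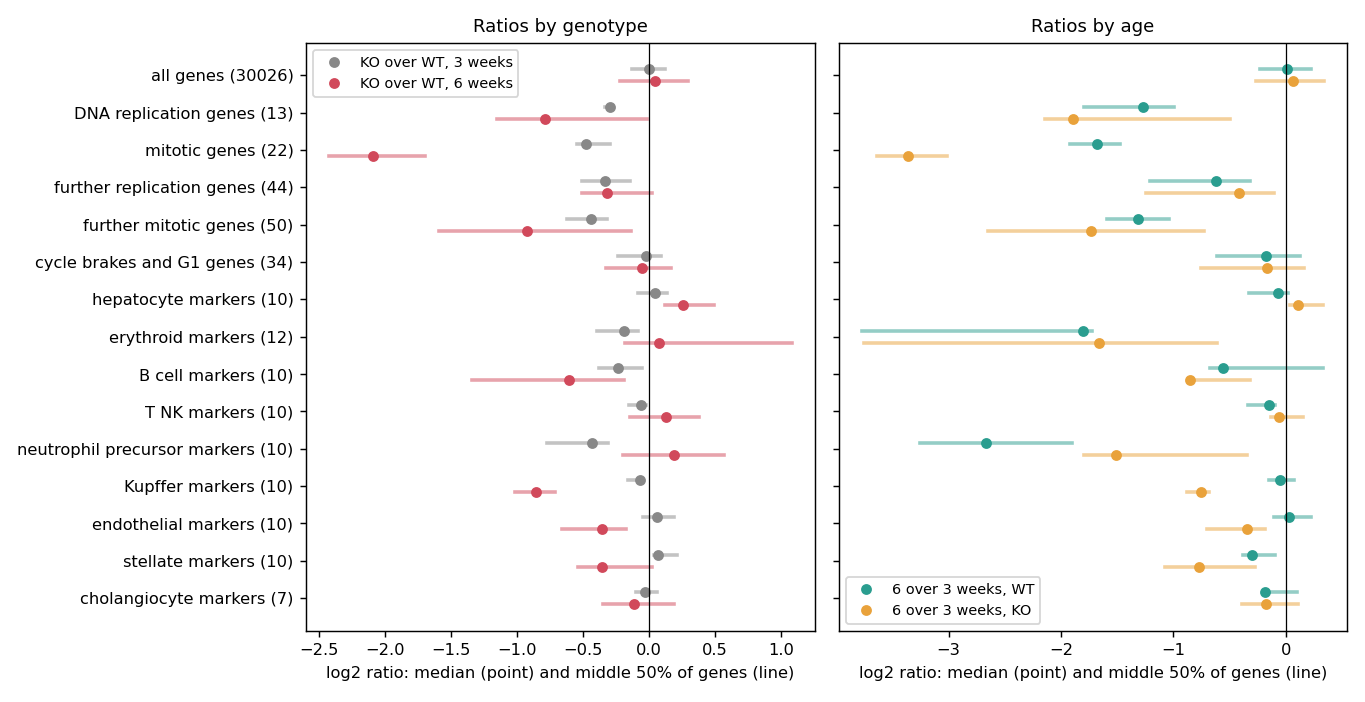
Median (point) and middle 50% (line) of log2 ratios (x axis) for gene groups and cell type markers (y axis, with the number of genes on the array), KO over WT at left and 6 over 3 weeks at right. Ratios against a dim array enter at their bound. The mitotic genes stand at -2.09 in KO over WT at 6 weeks, where erythroid markers stand at 0.08 and Kupffer cell markers at -0.86. Skeletal muscle markers, with medians of 6.59 and 5.17, lie outside the plotted range and are not drawn.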

How the data were processed

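Total RNA of 5 livers per group was pooled and hybridised to 1 Cy3 array per group, as the series' design text and protocols state. The deposited intensity values were extracted with Agilent's software (Feature Extraction, version 11.5.1.1, as given by the submitters' processing notes) and carry spatial and multiplicative detrending within each array, per the file headers. The deposited flags are other values, 0 or 1. The authors' value table equals this intensity over the array's 75th percentile for non-control spots, at a ratio of 0.9998 to 1.0, with column medians between 0.0853 and 0.0896, so it is linear, not centred and not a ratio.

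Outlier spots were left out, spots of a probe averaged, and log2 signals divided by the 75th percentile. Probes were named through RefSeq accessions (27508 of 39429), symbols (3544) or synonyms (404), and 7973 kept the file's name. The brightest probe represented a gene. A gene entered a comparison where well above background on at least 1 of its 2 arrays. A dim array entered at the higher of its own signal and the lowest signal among probes well above background there, giving a bound. limma 3.58.1 in R 4.3.3 used genes well above background on at least 2 arrays. Steps ran in Python 3.11.15 with numpy 2.4.6 and pandas 2.3.3 and were tested on simulated data. Probe positions are mm9, per the file headers.

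The genes and lists were chosen with earlier results of these data known. Named were all 39 genes and, from each list of further genes, the 6 with the largest ratio at 6 weeks and the 3 at 3 weeks, by the size of the KO/WT log2 ratio. Some items that this rule or these lists hold are not reported here. The marker lists held hepatocyte, erythroid, B cell, T and NK cell, neutrophil, Kupffer, endothelial, stellate, cholangiocyte and skeletal muscle genes. T and NK cell markers had KO/WT medians of -0.06 and 0.13 at 3 and 6 weeks, cholangiocyte markers of -0.03 and -0.11, endothelial and stellate markers of 0.06 and 0.07 at 3 weeks, and B cell and Kupffer markers of -0.23 and -0.07 at 3 weeks. The number of arrays limits the precision.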

Additional observations from a re-analysis of the deposited data

Results flagged for a closer look

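For 4 of the genes the KO/WT log2 ratio had opposite signs at the 2 ages, and this difference between the ages was not tested. At 3 weeks the ratios of Ccnd1 and Ccne1 lay within the error of 0, so their direction at that age is not settled. Ccnd1 stood at 0.20 at 3 weeks and -2.45 at 6 weeks, a difference of -2.65, with the WT array at 6 weeks above the other three. Rrm2 stood at -0.45 and 1.31, a difference of 1.76, and Tk1 at -0.48 and 0.52, a difference of 1.01. Ccne1 stood at 0.18 and -0.35, a difference of -0.52, but with the mean of its probes the ratios were -0.04 at 3 weeks and -1.62 at 6 weeks.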

How the results depend on the processing

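Of 134 values recomputed under alternatives, of which leaving out bounds was chosen after seeing the data, 118 stayed within the stated limits, 16 moved and 0 reversed. For KO against WT at 6 weeks, normexp and quantile normalization moved the median from -1.69 to -1.13 and the replication minus mitotic median from 1.30 to 0.73, and no filter moved the latter to 1.51. For 6 against 3 weeks in WT, normexp and quantile normalization gave a median of -1.24 and a replication minus mitotic median of 0.27, the filter on all 4 arrays a median of -1.48, and the mean of all probes one of -1.36. In KO these medians were -2.01 and 1.23 with normexp and quantile normalization and -2.81 and 1.68 with the filter on all 4 arrays, and also with bounds left out. The mean of all probes gave 1.62 for the latter. At 1.5-fold 3 genes were lower in KO at 3 weeks, and at 3-fold 18 were lower at 6 weeks in WT. Normexp and quantile normalization ended the 2-fold call at 6 weeks of 5 genes (Bub1b, E2f1, Kif11, Mcm2 and Nusap1), leaving 20. Quantile normalization alone left 25 genes at least 2-fold lower at 6 weeks and a median of -1.72. The normexp setting also added an offset of 50 to every intensity. The part of this offset in the smaller ratios was not tested. No paired analysis was possible because each group has 1 array and the labels carry no replicate numbers, and for the same reason no replicate could be left out. Signals near background limit Top2a, Bub1, Kif11 and Cdc6 to bounds.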

Other observations

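Further probes were present for 11 of the genes, 15 probes in all, and 6 of these were well above background on all 4 arrays. All 6 had the sign of the probe used at both ages. The size was not always shared. A second probe of Tpx2 had signals of 0.0363, 0.0281, 0.0278 and 0.0254 in WT and KO at 3 weeks and WT and KO at 6 weeks, a ratio at 6 weeks of -0.13 where the probe used gave -2.39. A second probe of Tk1 had 1.15, 0.709, 0.494 and 0.653 in the same order, with ratios of -0.69 at 3 weeks and 0.40 at 6 weeks, beside -0.48 and 0.52 on the probe used.

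A second probe of Ccne1 had 0.0773, 0.0648, 0.120 and 0.0161, the last not well above background. It was highest in WT at 6 weeks, as Ccnd1 was, while the brighter probe was lower at 6 weeks in both genotypes. The other two probes of Ccnb1 were likewise dim on the KO array at 6 weeks, with signals of 0.0103 and 0.00614 there against 0.0944 and 0.0377 in WT.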
